A study of Drosophila melanogaster with 4 samples.

Results

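The genes described here are 10 regulators of the cell division engine of Drosophila melanogaster, measured by ribosome footprints in the ovary. They are the cyclins CycA, CycB, CycB3, CycE and CycD, the cyclin-dependent kinases Cdk1 and Cdk2, the Cdc25 phosphatases string (stg) and twine (twe), and the Cdk inhibitor dacapo (dap). They were listed by name for their known roles, out of 17440 genes or joint loci named in the tables. Earlier results of these data were known when they were chosen. All 10 were detected in every library and were among the 7784 genes tested. The study sequenced RNA fragments protected by ribosomes from 2 wildtype and 2 RpS5b mutant ovary samples, and asked how gene expression and ribosome distribution differ between them. RpS5b encodes a paralog of a small-subunit ribosomal protein. Females of both genotypes were kept at a common temperature and dissected 48 hours after eclosion. The labels name neither the mutant allele nor a driver, do not say how many flies were pooled, and state only for the control ovaries that egg chambers of stages 10 to 14 were taken away. A difference in this removal would follow genotype, and could not be told apart from genotype in any contrast below.

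Cyclins are the changing subunits of cyclin-dependent kinases. Cdk1 with CycA, CycB or CycB3 drives entry into and passage through mitosis and meiosis, after a Cdc25 phosphatase has removed inhibitory phosphates from the kinase. Cdk2 with CycE drives DNA replication, and dap holds that complex back. In the fly ovary, germline cysts and young follicle cells divide by mitosis, the oocyte goes through meiosis, and nurse cells and older follicle cells run endocycles, in which DNA replicates again and again without division.

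The tables hold 1 footprint count per transcript. A count reflects both how much mRNA was present and how densely ribosomes occupied it. In a sample of mixed ovary cells, fewer cells of a type and less RNA per cell cannot be told apart. Counts over protein-coding genes lay between 1053457 and 1738080 in the wildtype and between 3066112 and 4599573 in the mutant libraries. Levels are given as CPM, counts per 1000000 of the TMM-scaled library size. Fold changes come from edgeR's quasi-likelihood test over all genes, with Benjamini-Hochberg adjustment over those genes and a threshold of 0.05, and are written as log2 of mutant over wildtype with a standard error (SE). RpS5b itself had 92.9 and 63.1 CPM in the wildtype and 0.778 and 1.03 CPM in the mutant libraries, in the direction the genotype labels give.

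Germline markers were present in both genotypes, and vas was at 113 ± 2.58 CPM in the wildtype and 113 ± 9.53 CPM in the mutant (SD, n = 2 each). Of 8 germline markers, nanos and osk fell and the other 6 did not pass. Levels of osk were 76.7 ± 5.93 CPM in the wildtype and 19.5 ± 5.04 CPM in the mutant. Its log2 fold change was -1.98 (SE 0.19, edgeR adjusted p = 0.000324), and its call held in 15 of 15 alternatives. The 8 markers summed to 464 to 542 CPM in the wildtype and 406 to 429 CPM in the mutant. Of all genes tested, 20.9% fell and 20.5% rose, so 2 falls out of 8 are near that background. The call of nanos (-0.46) was lost in 5 of 15 alternatives (-0.34 without mutant replicate 2, -0.42 without wildtype replicate 1 and -0.52 without wildtype replicate 2). In the DESeq2 Wald test 1 of the 8, osk, fell. All 9 chorion genes, which late follicle cells express, fell, and their summed level lay between 4802 and 7093 CPM in the wildtype and between 1124 and 1601 CPM in the mutant. Of 9 follicle cell markers, 7 rose and the other 2 did not pass, with summed levels of 1984 to 2863 CPM in the wildtype and 4164 to 4290 CPM in the mutant. Of the 6 muscle markers 0 passed in edgeR's test and 0 in the DESeq2 Wald test, and 1, Mhc, had an unadjusted p under 0.05 (summed level 136 to 199 CPM against 132 to 179 CPM). Mhc (0.71) passed in 7 of 15 alternatives (1.17 without wildtype replicate 1 and 0.81 without mutant replicate 2), Act57B (-0.41) in 3 (-0.74 without mutant replicate 1) and Act88F (-0.28) in 1. The fat body markers Fbp1 and Fbp2, the hemocyte marker He and the neural markers Syt1 and brp had no footprint in any library. Lsp2 (fat body), NimC1 (hemocyte) and nSyb (neural) were too sparse to test. They had 0 footprints in both wildtype libraries, and 7 and 0, 4 and 4, and 3 and 1 in the mutant libraries, which were deeper. The fat body marker apolpp rose (18.8 ± 2.77 to 41.5 ± 2.49 CPM). Neither the 2 hemocyte markers tested nor elav passed. The part of these shifts in the results below was not tested.

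Of the 10 genes, 8 fell and 0 rose in the mutant libraries by edgeR's test. At an unadjusted p under 0.05 these counts were also 8 and 0, and in the DESeq2 Wald test 6 and 0. Over all genes tested, 20.9% fell and 20.5% rose. The members and the gene lists below were chosen with earlier results of these data known, so such contrasts are descriptions. The libraries of the genotypes did not overlap for 9 of the 10 genes, 8 lower and 1 higher in the mutant, where 71.9% of all genes tested did not overlap, 34.3% lower and 37.6% higher. All 6 genes of the mitotic and meiotic group (CycA, CycB, CycB3, Cdk1, stg and twe) fell, with a median log2 fold change of -2.41, where the median over all genes tested was 0.03. Of the endocycle group, CycE and Cdk2 fell and dap did not pass, with a median of -0.61. CycD, a cyclin of growth and early G1, did not pass. Together the 10 genes took 0.150% and 0.157% of the protein-coding footprints in the wildtype, versus 0.0399% and 0.0437% in the mutant.

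**Figure D1:**
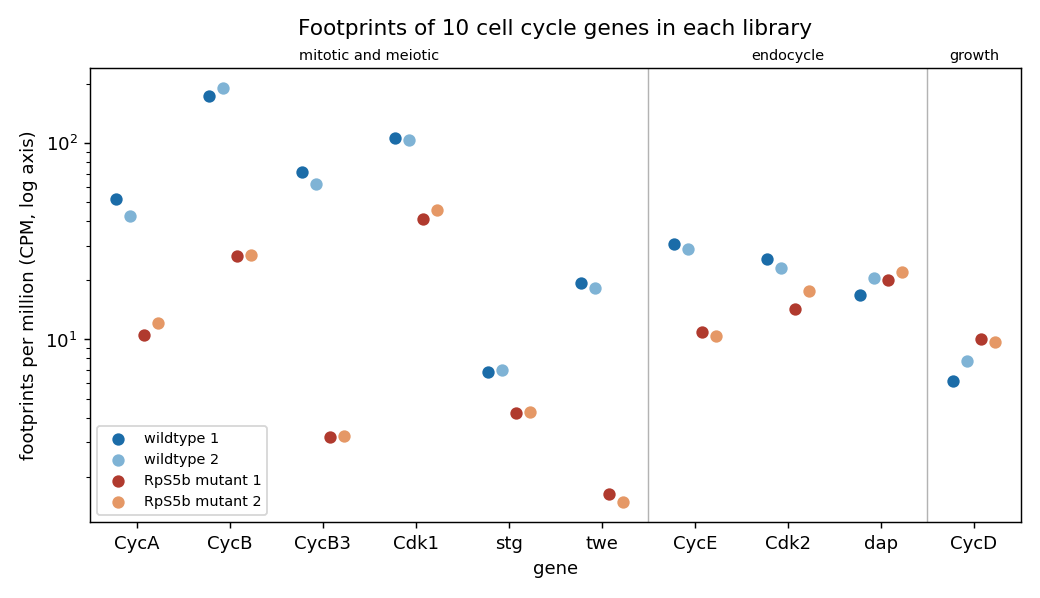
Footprint level (CPM, log axis) of the 10 genes, with 1 point per library and genes ordered by role. The mutant points lie below the wildtype points for each of the 6 mitotic and meiotic genes, by the widest gap for CycB3 (71.5 and 62.0 CPM against 3.19 and 3.22 CPM), and the points mix only for dap.

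CycB3, a mitotic cyclin that flies also need in female meiosis, had the largest change of the 10. It was at 71.5 and 62.0 CPM in the wildtype libraries and at 3.19 and 3.22 CPM in the mutant libraries. The groups were far apart and the mutant libraries nearly equal. The fitted log2 fold change was -4.37 (SE 0.17, edgeR adjusted p = 2.51e-05), a wildtype level 20.7 times the mutant level (95% interval 15.8 to 27.0). Of all genes tested, its fold change ranked 22nd from the lowest. The mutant values rest on 41 and 28 footprints, against 221 and 336 in the wildtype. Its transcript FBtr0084728 is a single exon on chromosome 3R, from 24868356 to 24870816 on the minus strand of build BDGP6.

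CycB, the cyclin that carries most of the mitotic cyclin footprints in these ovaries, also fell steeply. Its levels were 174 and 191 CPM in the wildtype and 26.8 and 27.0 CPM in the mutant. The groups lay far outside each other's range. The log2 fold change came to -2.76 (SE 0.15, edgeR adjusted p = 3.97e-05), or 6.78 times more in the wildtype (95% interval 5.36 to 8.60). The counted transcript spans 22803521 to 22806948 on chromosome 2R.

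CycA, which acts in mitosis and in the S to M transition, had a smaller fitted fall than either B-type cyclin. Wildtype libraries had 52.1 and 42.5 CPM and mutant libraries 10.6 and 12.2 CPM. Here too no mutant value reached a wildtype value. The log2 fold change was -2.05 (SE 0.16, edgeR adjusted p = 0.000140), and its interval, -2.42 to -1.68, overlapped neither that of CycB3, -4.76 to -3.99, nor that of twe, -4.09 to -3.04. It just met that of CycB, -3.10 to -2.42. The transcript lies on chromosome 3L, from 11827083 to 11833578.

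Cdk1, the kinase subunit that all 3 of these cyclins share, changed by less than they did. It had 106 and 104 CPM in the wildtype and 41.2 and 45.9 CPM in the mutant. Its log2 fold change was -1.27 (SE 0.14, edgeR adjusted p = 0.000496), which corresponds to 2.41 times more in the wildtype (95% interval 1.94 to 3.01). Cdk1 kept more of its footprints than any of its cyclins: its interval, -1.59 to -0.95, ended above the upper bound of CycA at -1.68. The gene is on chromosome 2L, from 10384739 to 10386262.

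The 2 Cdc25 phosphatase genes, which release Cdk1 from inhibition, differed widely. The meiotic phosphatase gene twe was at 19.4 and 18.3 CPM in the wildtype and at 1.63 and 1.49 CPM in the mutant, the latter from 21 and 13 footprints. Its log2 fold change was -3.56 (SE 0.23, edgeR adjusted p = 6.22e-05), or 11.8 times more in the wildtype (95% interval 8.20 to 17.0). The mitotic phosphatase gene stg was sparse throughout, with 6.80 and 7.01 CPM in the wildtype and 4.20 and 4.25 CPM in the mutant. Its groups did not overlap, but its counts, 21 to 54 footprints per library, leave a wide interval. The log2 fold change was -0.71 (SE 0.23, edgeR adjusted p = 0.0439), with an interval from -1.26 to -0.17. The stg call did not hold in 7 of 14 alternatives. It was lost whichever of the 4 libraries was left out (values from -0.73 to -0.70), and stg was at -0.40 with libraries thinned to a common depth. Within a library, twe took 74.1% (exact 95% interval 63.1 to 83.2) and 72.3% (64.0 to 79.6) of the footprints of the pair in the wildtype, against 28.0% (18.2 to 39.6) and 26.0% (14.6 to 40.3) in the mutant. The majority of Cdc25 footprints was on twe in both wildtype libraries and on stg in both mutant libraries. These intervals cover counting error only.

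**Figure D2:**
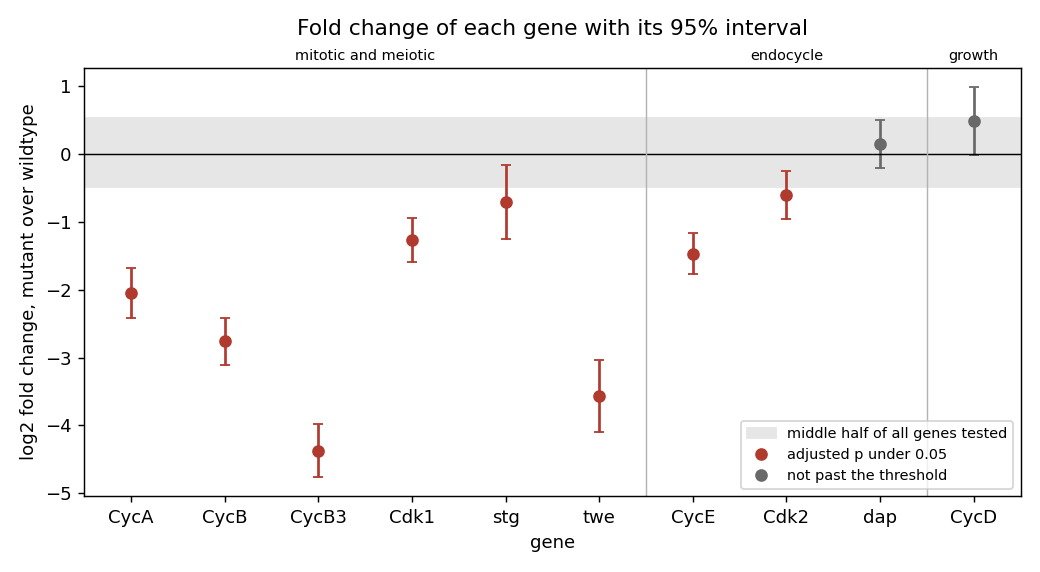
Log2 fold change (mutant over wildtype) of the 10 genes with 95% intervals from edgeR's fit, and a grey band for the range between the quartiles of all genes tested (-0.49 to 0.53). CycB3 at -4.37 and twe at -3.56 are lowest, while the points of dap and CycD lie inside the band and above 0.

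In the endocycle group the pattern was mixed. CycE, the cyclin that starts DNA replication, was at 30.8 and 29.0 CPM in the wildtype and at 11.0 and 10.5 CPM in the mutant. The libraries of each genotype were close to each other and the groups well apart. Its log2 fold change was -1.47 (SE 0.13, edgeR adjusted p = 0.000220), or 2.77 times more in the wildtype (95% interval 2.24 to 3.42). CycE therefore did not stay apart from the mitotic and meiotic genes: its fold change lay between those of CycA and Cdk1. It spans 15727784 to 15748150 on chromosome 2L.

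Cdk2, the kinase partner of CycE, fell by less. It was at 25.6 and 23.1 CPM in the wildtype and at 14.3 and 17.6 CPM in the mutant, with no overlap. The log2 fold change was -0.61 (SE 0.15, edgeR adjusted p = 0.0168) with an interval from -0.97 to -0.25. That call was lost without wildtype replicate 1 (-0.55), without mutant replicate 1 (-0.48) and in the DESeq2 Wald test (-0.64). Cdk2 lies on chromosome 3R, from 20735623 to 20737330 on the plus strand.

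The inhibitor gene dap, whose product binds CycE with Cdk2, did not pass the test. It had 16.8 and 20.7 CPM in the wildtype and 20.0 and 22.2 CPM in the mutant. The groups overlapped, and the means were 18.8 ± 2.72 and 21.1 ± 1.53 CPM (SD, n = 2 each). Its log2 fold change was 0.14 (SE 0.15, edgeR adjusted p = 0.491), with a 95% interval from -0.21 to 0.49. The data do not show that dap was equal in both genotypes, but the interval leaves out a fall as large as the fitted one of Cdk2. The gene is on chromosome 2R, from 9712321 to 9716256.

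CycD, the partner of Cdk4 in growth and early G1, was the only other member that did not pass. Its levels were 6.15 and 7.75 CPM in the wildtype and 10.0 and 9.76 CPM in the mutant, so both mutant values lay above both wildtype values. The wildtype values rest on 19 and 42 footprints. The log2 fold change was 0.48 (SE 0.22, edgeR adjusted p = 0.111), with an interval from -0.02 to 0.98. For comparison, groups did not overlap in the higher direction for 37.6% of all genes tested. CycD lies on chromosome X, from 15906822 to 15909676.

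Genes of the mitotic and endocycle groups can be set against each other inside a library, where the scaling between libraries cancels. The endocycle group holds genes of the step from G1 to S. The group names give roles of genes and do not sort dividing cells from endocycling cells. Per kilobase of transcript, CycB had 7.86 and 9.12 times the footprints of CycE in the wildtype, versus 3.38 and 3.58 times in the mutant. For CycA over CycE the ratios were 2.42 and 2.09 in the wildtype, versus 1.38 and 1.67 in the mutant. Both ratios thus stayed above 1 in every library and were lower in each mutant library. CycB3 over CycE went from 3.45 and 3.18 to 0.432 and 0.457, so that CycE had the higher density in the mutant. Not every mitotic or meiotic gene fell more than CycE (-1.47). CycA, CycB, CycB3 and twe did by the fitted value, although the interval of CycA, -2.42 to -1.68, overlapped that of CycE, -1.77 to -1.17. The fitted falls of Cdk1 (-1.27) and stg (-0.71) were smaller, with intervals that also overlapped that of CycE. With 2 libraries against 2, an exact permutation test cannot give a two-sided p under 0.333, and these ratios are descriptions.

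Among the kinases, Cdk1 had 4.68 and 5.05 times the density of Cdk2 in the wildtype, versus 3.23 and 2.94 times in the mutant. The order of the kinases did not change, and the distance between them shrank. In the CycE module, dap had 0.790 and 1.03 times the density of CycE in the wildtype, versus 2.63 and 3.06 times in the mutant. CycE over Cdk2 was 0.400 and 0.418 in the wildtype, versus 0.255 and 0.198 in the mutant. The inhibitor thus had more footprints relative to its target cyclin in both mutant libraries, and the cyclin fewer relative to its kinase. On the mitotic side, CycB over Cdk1 was 0.672 and 0.755 in the wildtype, versus 0.267 and 0.241 in the mutant.

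**Figure D3:**
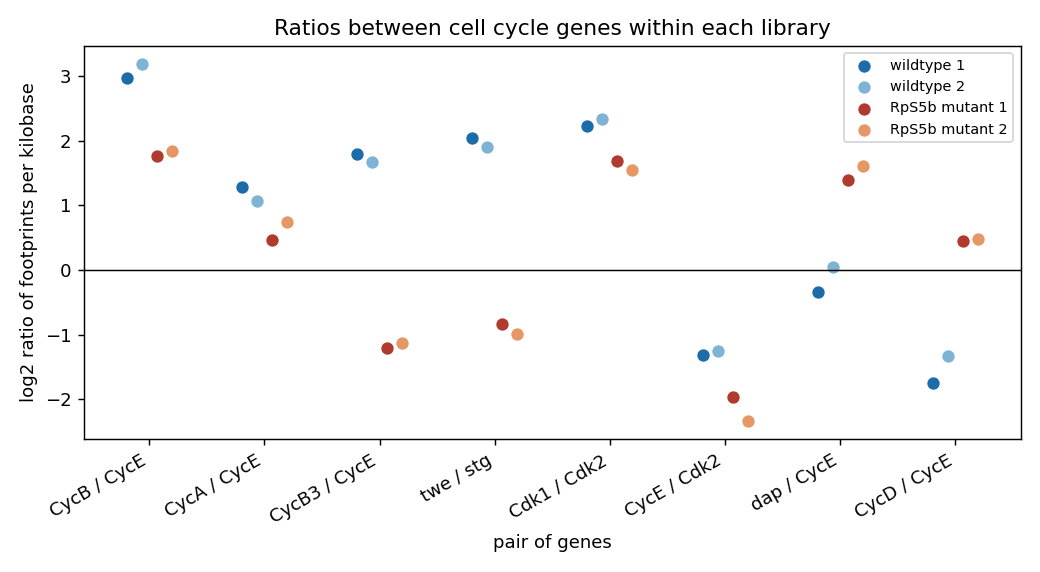
Log2 ratio of footprints per kilobase between pairs of cell cycle genes within each library, with 1 point per library. CycA, CycB and CycB3 over CycE, Cdk1 over Cdk2, CycE over Cdk2, and twe over stg lie lower in both mutant libraries. The ratio of twe over stg crosses 0 (2.04 and 1.90 against -0.84 and -0.99). Those of dap and CycD over CycE lie higher. Cdk1 and stg over CycE are not shown.

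Across the 5 cyclins, CycA, CycB and CycB3 together took 89.0% (exact 95% interval 86.9 to 90.8) and 88.9% (87.4 to 90.3) of the footprints in the wildtype, against 65.9% (62.4 to 69.2) and 67.7% (63.6 to 71.6) in the mutant. The share of CycE was 9.19% and 8.74% in the wildtype, versus 17.8% and 16.7% in the mutant, although its own level fell. CycD took 1.84% and 2.34% in the wildtype, versus 16.3% and 15.6% in the mutant. The mutant libraries were thus alike in this make-up and distinct from the wildtype ones. Within the 3 mitotic cyclins, the share of CycB3 was 24.0% and 21.0% in the wildtype, versus 7.87% and 7.59% in the mutant, while that of CycA was 17.5% and 14.4% against 26.1% and 28.7%. CycB took the majority in every library, 58.5% and 64.6% in the wildtype, versus 66.0% and 63.7% in the mutant.

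**Figure D4:**
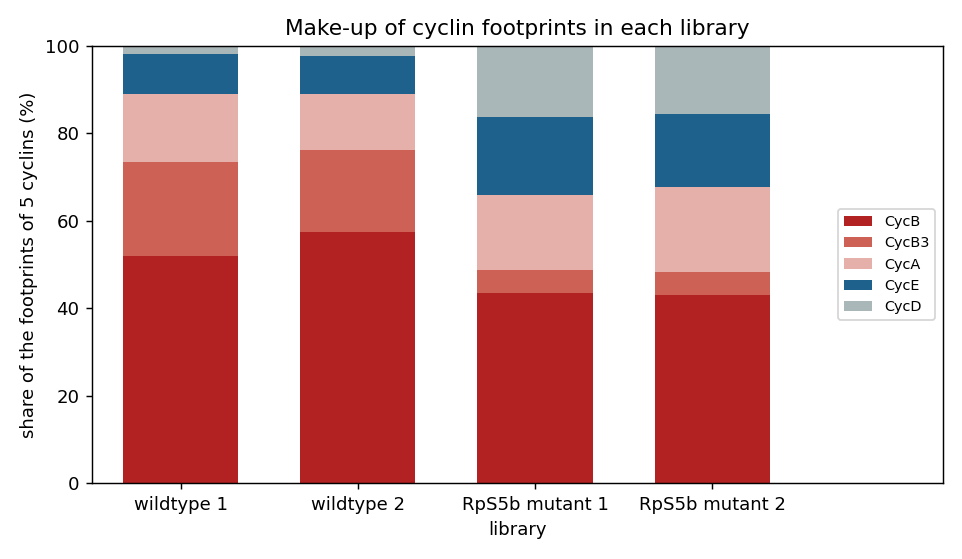
Share of the summed footprints of CycA, CycB, CycB3, CycE and CycD (in %) that each cyclin took in each library. The 3 mitotic cyclins fill 89.0% and 88.9% of the wildtype bars and 65.9% and 67.7% of the mutant bars, where CycE and CycD take the rest.

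Levels between genes were compared as density, CPM per kilobase of the whole counted transcript, untranslated ends included. In the wildtype the order was Cdk1 at 97.2, CycB at 69.2, CycB3 at 27.1, Cdk2 at 20.0, CycA at 18.5, twe at 10.5, CycE at 8.18, dap at 7.41, CycD at 2.83 and stg at 2.67 CPM per kilobase. Neighbours whose libraries overlapped in this order were Cdk2 and CycA, CycE and dap, and CycD and stg. In the mutant the order of mean density was Cdk1 at 40.2, Cdk2 at 13.1, CycB at 10.2, dap at 8.33, CycA at 4.45, CycD at 4.04, CycE at 2.93, stg at 1.63, CycB3 at 1.30 and twe at 0.867 CPM per kilobase. No neighbours overlapped there, although CycA and CycD lay close together. CycB3 moved from place 3 to place 9 and twe from place 6 to place 10, while dap moved from place 8 to place 4. Among protein-coding genes tested, 83.3% had a lower density than CycB3 in the wildtype and 10.7% in the mutant. For Cdk1 these shares were 94.2% and 88.5%, so it was still among the denser genes.

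Every deposited isoform of a member gave much the same difference. The log2 ratio of mean CPM ran from -2.76 to -2.73 over the 4 transcripts of CycB, from -1.57 to -1.48 over the 6 of CycE and from -3.60 to -3.59 over the 4 of twe. Isoforms share most of their exons and therefore their reads, so this says little about the choice of isoform. No exon of a transcript of another gene on the same strand overlapped a member. On the opposite strand, EndoGI overlaps longer isoforms of twe by up to 98 exonic bases but not the counted transcript FBtr0331444, and 2 noncoding genes and CG17267, with 0 to 2 footprints in each library, overlap CycE and Cdk2.

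In a wider list of 26 genes that act on or beside these kinases, 13 fell, 3 rose and 10 did not pass, where 20.9% of all genes tested fell and 20.5% rose. The median log2 fold change of the list was -0.36, against 0.03 over all genes. The falls with the smallest p were mtrm, whose product holds back Polo kinase in the oocyte, at -4.42 (SE 0.18, edgeR adjusted p = 2.51e-05), fzy, a Cdc20-type activator of cyclin destruction, at -3.18 (SE 0.15, edgeR adjusted p = 2.83e-05), and Rca1, an inhibitor of that destruction, at -3.32 (SE 0.18, edgeR adjusted p = 3.97e-05). An activator and an inhibitor of cyclin destruction were thus both among the genes that fell. Levels of fzy were 92.9 and 98.8 CPM in the wildtype and 11.4 and 9.53 CPM in the mutant. The list's rises were CycG at 1.07 (SE 0.14, edgeR adjusted p = 0.00110), CycJ at 0.71 (SE 0.17, edgeR adjusted p = 0.0133) and trbl at 0.46 (SE 0.16, edgeR adjusted p = 0.0481). CycG and CycJ encode cyclins, and trbl encodes a protein that promotes the breakdown of String. For trbl the call did not hold in 9 of 15 alternatives, and was lost whichever library was left out (0.43 to 0.49). That of CycJ was lost in 3, among them without wildtype replicate 2 (0.63) and without mutant replicate 1 (0.69).

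Other genes of this list, chosen after their values were seen, include direct partners of the members. The Cdk-binding subunit gene Cks30A, which female meiosis requires, had 25.9 and 25.5 CPM in the wildtype and 3.35 and 4.94 CPM in the mutant (log2 fold change -2.66, SE 0.20, edgeR adjusted p = 0.000131). Its paralog gene Cks85A had 3.24 and 3.32 CPM in the wildtype and 5.29 and 5.74 CPM in the mutant and did not pass (0.74, SE 0.27, edgeR adjusted p = 0.0615). The mutant value was lower in both libraries for Cks30A and higher in both for Cks85A, whose wildtype values rest on 10 and 18 footprints. Groups did not overlap in the lower direction for 34.3% and in the higher direction for 37.6% of all genes tested. All 3 subunits of the kinase that activates Cdks fell in edgeR's test, and only CycH of them in the DESeq2 Wald test. CycH was at -2.02 (SE 0.24, edgeR adjusted p = 0.000761), Mat1 at -0.84 (SE 0.21, edgeR adjusted p = 0.0161) and Cdk7 at -0.66 (SE 0.17, edgeR adjusted p = 0.0198). The DESeq2 adjusted p was 0.0697 for Mat1 and 0.0926 for Cdk7. The call of Mat1 was also lost without wildtype replicate 1 (-0.78), and that of Cdk7 without wildtype replicate 1 (-0.58) or mutant replicate 2 (-0.49). The inhibitory kinase genes Wee1 at 0.15 and Myt1 at 0.10 did not pass. On the endocycle side, fzr, a Cdh1-type activator of mitotic cyclin destruction, was at 22.3 and 20.1 CPM in the wildtype and 20.3 and 23.9 CPM in the mutant and did not pass (0.06, SE 0.15). Cdk4, the partner of CycD, was at 0.45 (SE 0.17, edgeR adjusted p = 0.0706) and did not pass, as was the case for CycD. Cdk4 passed in 1 of 15 alternatives, with libraries thinned to a common depth (0.71), and CycD in 0 of 14.

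**Figure D5:**
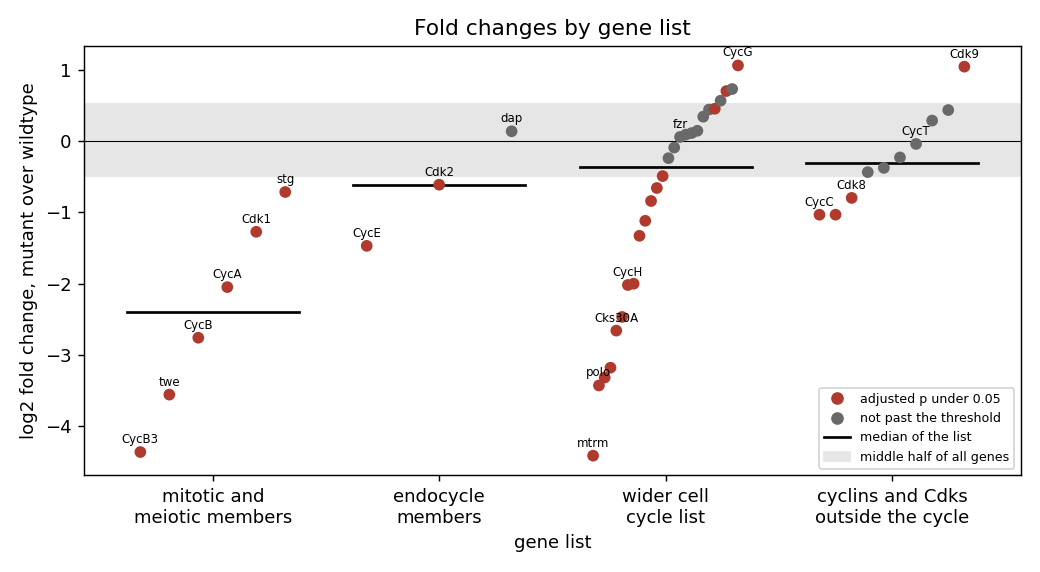
Log2 fold change (mutant over wildtype) of the tested genes in 4 lists, with the median of each list as a line and the range between the quartiles of all genes as a grey band. The mitotic and meiotic members have a median of -2.41, the endocycle members of -0.61, the wider cell cycle list of -0.36 and the cyclins and Cdks outside the cycle of -0.30.

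Cyclins and Cdks that work outside the cell cycle, mostly in transcription, give a comparison within the same protein families. Of 10 such genes tested out of 11, 3 fell, 1 rose and 6 did not pass, where 20.9% of all genes tested fell and 20.5% rose. These counts are near that background, and the median log2 fold change was -0.30. The falls were Pitslre at -1.03 (SE 0.14, edgeR adjusted p = 0.00133), and the Mediator kinase subunits Cdk8 at -0.79 (SE 0.22, edgeR adjusted p = 0.0243) and CycC at -1.03 (SE 0.23, edgeR adjusted p = 0.0101). CycC lay under the minimum level for naming and was chosen after its values were seen. Without wildtype replicate 2 the calls of CycC (-0.82) and Cdk8 (-0.47) were lost. Cdk8 lost its call in 4 of 15 alternatives, the others being without mutant replicate 1 (-0.78), in the DESeq2 Wald test (-0.81) and with libraries thinned to a common depth (-0.71). Cdk9, the kinase that releases paused RNA polymerase, rose from 6.47 and 8.68 CPM to 17.3 and 14.9 CPM (1.05, SE 0.20, edgeR adjusted p = 0.00503). The lowest value of this list was thus above those of all mitotic and meiotic members but stg.

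Genes whose pattern over the 4 libraries was closest were found by the Euclidean distance between centred log2 CPM values, among 4614 candidates with a mean of at least 10 CPM. Over 4 libraries this is mainly a likeness in fold change. Closest to CycB3 were mtrm at a distance of 0.235, superdeath at 0.311 and gnu, a subunit of the kinase of egg activation, at 0.470. Nearest to CycB were Ote, a protein of the nuclear lamina, at 0.0420, the centrosome gene cnn at 0.173 and the secretion gene wls at 0.209. For CycE the nearest were Mcm7, a subunit of the replicative helicase, at 0.0388, Su(var)2-10 at 0.0517 and dlt at 0.0631. Mcm7 was at 164 and 156 CPM in the wildtype and 57.8 and 57.1 CPM in the mutant, a log2 fold change of -1.47 beside the -1.47 of CycE.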

How the data were processed

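Per the file headers, the authors' counts are reads of 25 to 100 nt per whole transcript, placed 12 nt from the 5' end, with no region masked. The deposited RPKM column scales those counts to transcript length and library reads. The deposited signal column is the count per nucleotide, and a further deposited column of other kind is the length. None of these columns was tested. Per the labels' protocols, fragments of 28 to 34 nt were selected. Per the submitters' processing notes, the tools were TopHat2 2.1.2 with Bowtie 1.0.0, bedtools 2.26.0, SAMtools 0.1.19 and DESeq2, and the build BDGP6.

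Transcripts were named by coordinates in a RefSeq gene table of Release 6 (shared ends, junctions, or 80% overlap), 34567 of 34729 in all. The others held between 0.088% and 0.15% of the counts and were left out. Because isoforms share reads, the transcript with the highest mean count, the shorter at a tie, stood for its gene. Genes passed filterByExpr, libraries were scaled by TMM, and edgeR 4.0.16 (R 4.3.3) fitted genotype alone. SE is the log2 fold change over the square root of F. Intervals use the fit's degrees of freedom (2 residual, 5.54 prior). Transfer RNA took 54.8% to 63.9% of the counts. Since no label ties the libraries to separate flies, p-values measure only how far these libraries spread, and that spread may be technical. Footprints carry no molecular identifiers. Counts were also drawn for 7784 genes, with a spread that depended on level alone and not on the gene. On these the test found 96.8% of 95 4-fold and 54.1% of 98 2-fold changes. These rates may not hold for the real libraries, where 41.4% of the genes tested were called.

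The members and lists were chosen with earlier results of these data known. The rule named all members, RpS5b, up to 3 genes per direction and list with the smallest p and a mean of at least 10 CPM, up to 2 markers per list, and the closest patterns. The 15 alternatives changed scaling, test (DESeq2 1.42.0, limma 3.58.1), filter, transcript, depth, replicate block or left out a library. No promoter or protein sequences were used here.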

Additional observations from a re-analysis of the deposited data

How the results depend on the processing

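Under 15 alternatives CycA, CycB, CycB3, CycE, Cdk1 and twe kept their direction and their call, and dap and CycD (14 for CycD) did not pass in any. The calls of stg and Cdk2 were lost in 7 of 14 and 3 of 15. The members that fell numbered 6 to 8 over the alternatives (6 to 7 with 1 library left out), and 0 rose. The median of the mitotic and meiotic genes minus that of the endocycle genes was -1.80, and -2.15 with the filter of 10 CPM in 2 libraries, which leaves out stg. With 1 library left out it ran from -1.89 to -1.70. Over all genes, 853 rose in the DESeq2 Wald test against 1596, and between 1039 and 1412 with 1 library left out. Genes of the wider list that rose numbered 1 in the DESeq2 Wald test, and 1 to 2 with 1 library left out (1 without wildtype replicate 2 and 1 without mutant replicate 1). Of the cyclins and Cdks outside the cycle, 1 to 3 fell with 1 library left out, and 2 rose with protein-coding genes only, with no filter, with the replicate block, and without wildtype replicate 2 or mutant replicate 2. The cause was not tested. The labels do not say whether equal replicate numbers pair the libraries. Deviations of same-numbered libraries correlated at 0.46 over 4615 genes, a hint of pairing from the data. With the replicate block 1893 genes fell and 1935 rose, against 1626 and 1596, and 8 members fell and 0 rose. Low depth limits stg, CycD and twe most.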
